A study of Mus musculus with 24 samples.

Results

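Mitochondrial fatty acid oxidation was followed in 4 tissues of WT and *Rap1* knockin mice through 10 genes listed by name: *Cpt1a*, *Cpt1b*, *Slc25a20*, *Cpt2*, *Acadvl*, *Acadl*, *Acadm*, *Acads*, *Hadha* and *Hadhb*. They were 10 of the 21368 genes that could be named on the array, and 13 of its 55681 probes measured them, 2 each for *Cpt1a*, *Cpt1b* and *Cpt2* and 1 each for the others. All 13 probes were well above background on all 24 arrays, and none had a saturated spot.

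Liver, brain, heart and skeletal muscle were taken from 6 male mice, 3 WT and 3 *Rap1* KI/KI, and each tissue of each mouse was measured on its own 1-color Agilent array, so the same mice gave all 4 tissues. *Rap1* KI/KI mice are homozygous for an allele made with CRISPR/Cas9 and backcrossed to C57BL/6N, in which an isoleucine of RAP1, a protein of the telomere-binding shelterin complex, is replaced by arginine in every cell, so that RAP1 no longer binds its partner TRF2. WT mice carried no such allele. By the labels, mice WT1 and KI1 were 5 months old and WT2, WT3, KI2 and KI3 were 2 months old. The comparisons ask how the enzymes differ between tissues and whether they differ between the genotypes within a tissue.

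The level of a probe is its log2 intensity, with the log2 75th percentile of all intensities on the same array taken as 0, and a difference of 1 is a factor of 2 in intensity. Probes differ in how strongly they bind their transcript, so levels were compared between arrays and never between genes. The 75th percentile of the intensities was 470.7 to 1389, and 56.5% to 72.7% of probes were well above background. *Terf2ip*, which encodes RAP1, differed between *Rap1* KI/KI and WT mice by -0.41 (heart) to 0.12 (liver), and since the allele changes a codon, its level does not check the labels. In WT mice, all 10 hepatocyte markers were higher in liver than in each other tissue, and all 10 fast skeletal muscle markers were higher in muscle than in each other tissue (limma adjusted p under 0.05). At the same threshold, 10 of 10 brain markers were higher in brain than in liver, 9 than in heart and 9 than in muscle. Of 9 heart muscle markers, 9 were higher in heart than in liver, 9 than in brain and 8 than in muscle. Some samples stood apart by their marker transcripts. Fat cell transcripts were high in the hearts of KI1 and KI3, slow fibre and neutrophil transcripts in the muscle of KI1, *Ucp1* and *Cidea*, genes of brown fat cells, in the muscle of KI2, and neuronal transcripts such as *Syn1* in the muscle of KI3. The log2 summed level of white fat cell markers was 5.29 in the liver of KI1, against 3.06 to 3.85 in the other livers, and in muscle 10.5 in KI2 and 10.0 in WT1, against 7.60 to 9.17 in the others. In whole tissue, fewer cells of a type and less RNA per cell cannot be told apart.

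Long-chain fatty acids enter the mitochondrion as carnitine esters. Carnitine palmitoyltransferase 1, of which CPT1A is the form known from liver and CPT1B the form known from heart and muscle, makes the ester at the outer membrane and is the step that malonyl-CoA inhibits. The carrier encoded by *Slc25a20* takes the ester across the inner membrane, and CPT2 turns it back into an acyl-CoA. Each round of oxidation then starts with an acyl-CoA dehydrogenase (ACADVL, ACADL, ACADM or ACADS, for very long, long, medium and short chains) and, for long chains, is completed by the mitochondrial trifunctional protein, whose alpha and beta subunits are encoded by *Hadha* and *Hadhb*. Heart and red muscle use fatty acids as a main fuel, liver oxidizes them to make ketone bodies, and brain uses them little.

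In WT mice, the enzymes were lowest in brain and, for most genes, highest in heart. Brain had the lowest mean of the 4 tissues for 9 of the 10 genes, the exception being *Cpt1a*, which was lowest in muscle. Heart had the highest mean for 7 genes and liver for *Cpt1a*, *Slc25a20* and *Acads*. At a limma adjusted p under 0.05, 10 of 10 genes were lower in brain than in heart, where 32.4% of all 40683 tested probes were called lower. In the same way 9 were lower in brain than in muscle (34.5% of all probes) and 9 were higher in liver than in brain (39%). Heart exceeded muscle for 9 genes (14.9%). Liver against heart was mixed, with 1 gene called higher (26.4%) and 6 called lower (24.6%), and so was liver against muscle, with 5 called higher (27.9%) and 1 lower (27.5%). The median difference over the 10 genes was -5.09 for brain minus heart, -3.51 for brain minus muscle, 4.07 for liver minus brain, 1.54 for heart minus muscle, -0.88 for liver minus heart and 0.64 for liver minus muscle. Over all tested probes these medians were -0.21, -0.28, 0.33, -0.08, 0.03 and -0.06.

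**Figure D1:**
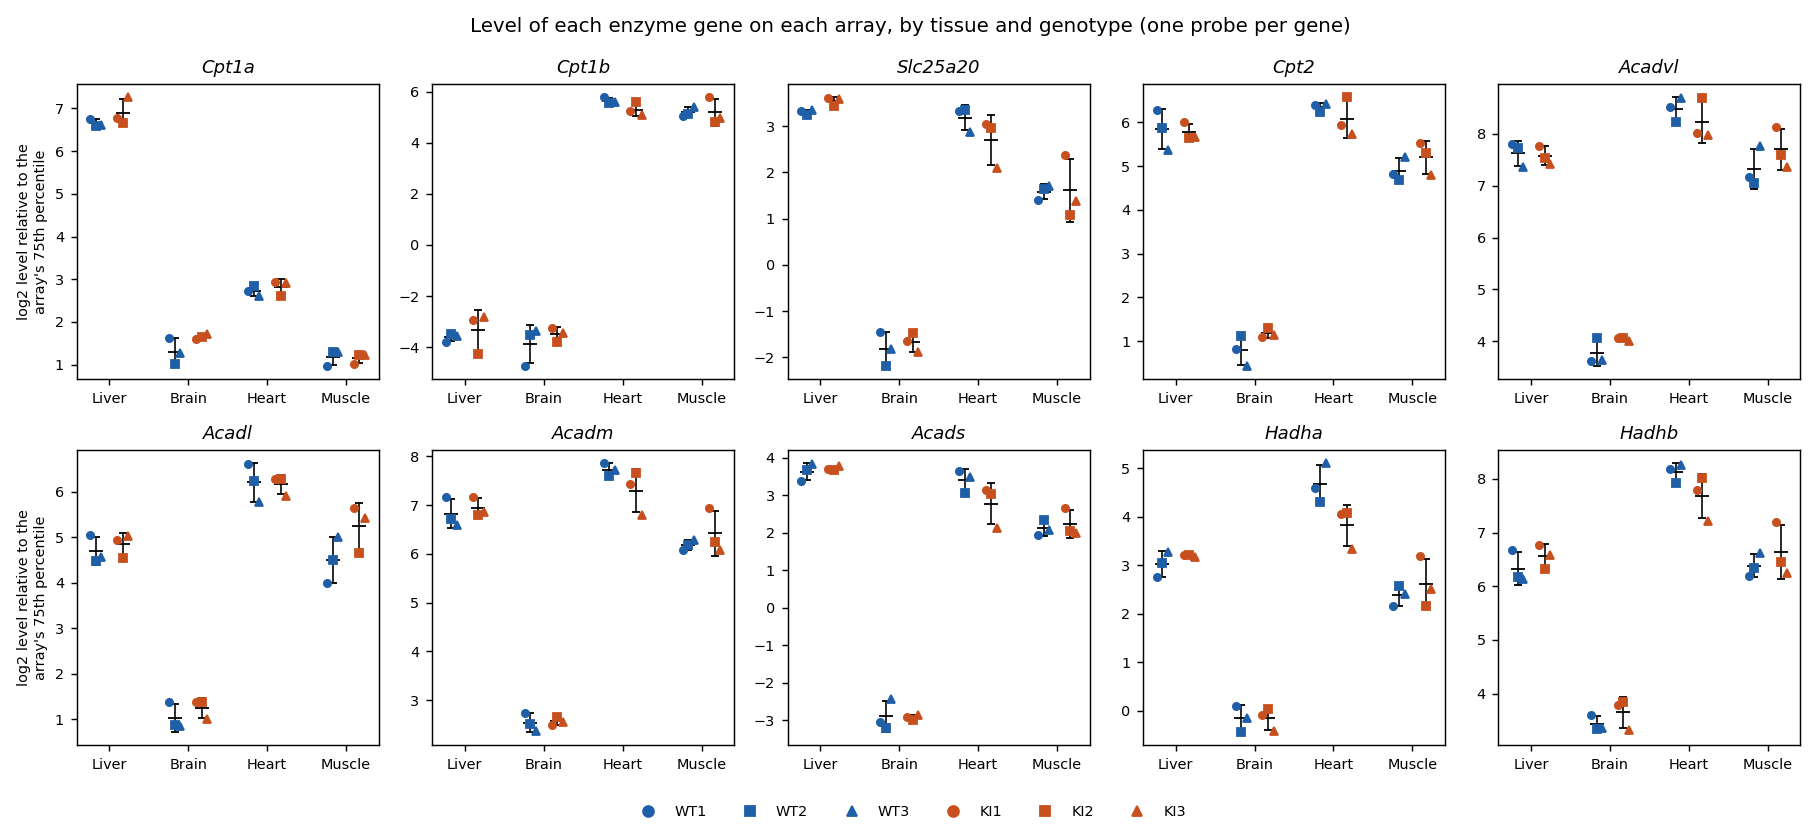
Each panel plots the log2 level of 1 gene (0 is the 75th percentile of an array) in liver, brain, heart and muscle, with a point per mouse and array (WT blue, Rap1 KI/KI orange, mice 1 to 3 as circle, square and triangle) and black bars for mean ± SD of 3 mice. Axes differ between panels. Brain has the lowest WT mean in all panels except that of *Cpt1a*, with brain and liver overlapping for *Cpt1b*, and the 2 *Cpt1* genes have opposite patterns between liver and muscle.

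The 2 genes for carnitine palmitoyltransferase 1 had the most contrasting tissue patterns. The WT livers had *Cpt1a* levels of 6.76, 6.59 and 6.62. The WT hearts had 2.73, 2.84 and 2.61, the WT brains 1.64, 1.02 and 1.27, and the WT muscles 0.97, 1.29 and 1.30. All livers thus lay far above all hearts, and all hearts above the brains and muscles, which overlapped. *Cpt1a* was 15.3-fold higher in liver than in heart (difference 3.93, SE 0.21, limma adjusted p = 4.34e-08), and heart exceeded brain by 1.42 (SE 0.21, limma adjusted p = 0.000154). Brain and muscle differed by 0.12 (SE 0.21), which did not pass the test (limma adjusted p = 0.649).

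For *Cpt1b* heart and muscle were highest, and liver lay far below both. The WT hearts had levels of 5.79, 5.57 and 5.59 and the WT muscles 5.06, 5.12 and 5.41, against -3.78, -3.48 and -3.56 in the livers and -4.73, -3.53 and -3.35 in the brains. Muscle exceeded liver 445-fold (difference 8.80, SE 0.32, limma adjusted p = 1.59e-09). Heart lay above muscle in all mice, by 0.46 (SE 0.32), and liver and brain overlapped (difference 0.27, SE 0.32), and neither of these differences passed the test (limma adjusted p = 0.33 and 0.478). The *Cpt1a* main probe is printed in 10 spots on each array, and the SD between its spots was 0.023 to 0.14 over the 24 arrays, with the highest in the muscle of KI3, while the SD between the WT mice of a tissue was 0.093 to 0.31.

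The second probe of each gene gave the same order of the tissues but other sizes. On the second *Cpt1a* probe, liver exceeded heart by 2.25 (SE 0.33), against 3.93 on the main probe, and on the second *Cpt1b* probe liver minus muscle was -7.49 (SE 0.38), a 180-fold gap against 445-fold on the main probe. For *Cpt2* the probes differed in the order of heart and liver. Heart exceeded liver by 0.51 on the main probe, and liver exceeded heart by 0.53 on the second, and neither difference passed the test (limma adjusted p = 0.154 and 0.248).

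**Figure D2:**
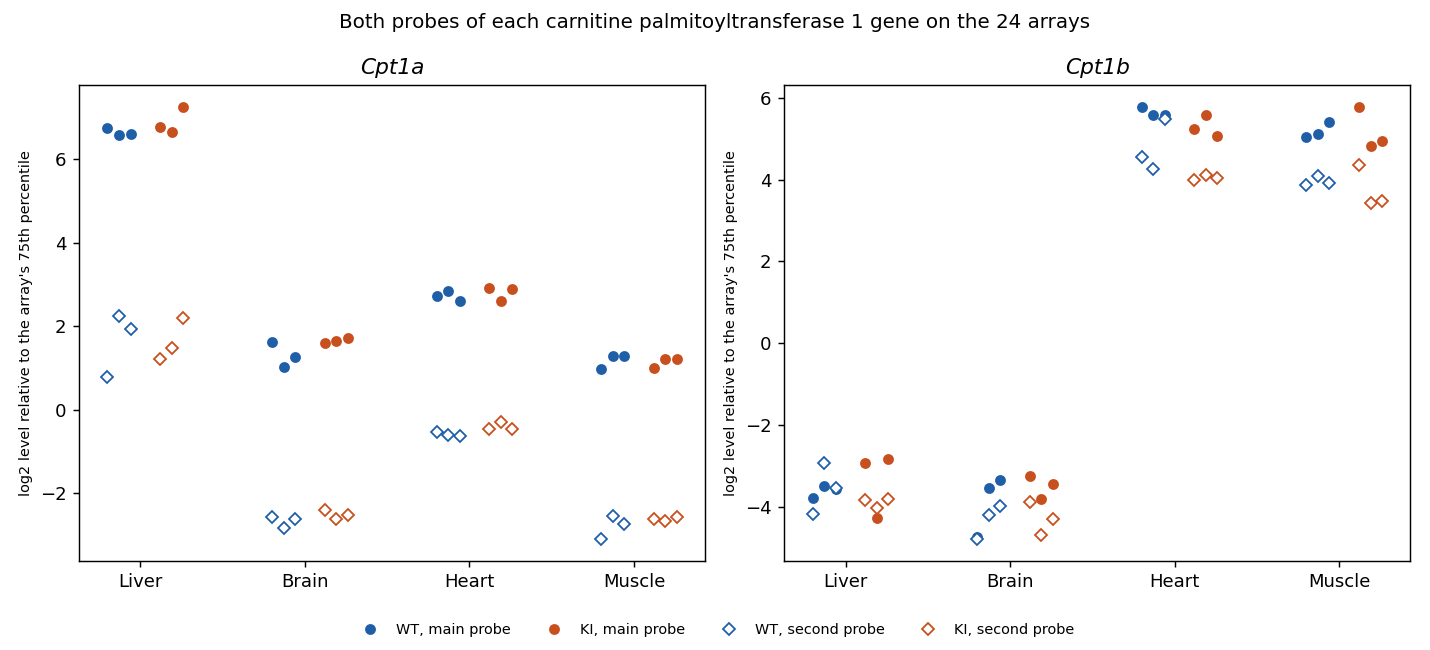
The log2 level (0 is the 75th percentile of an array) of *Cpt1a* and *Cpt1b* on all 24 arrays, by tissue, with filled circles for the main probe and open diamonds for the second probe (WT blue, Rap1 KI/KI orange). On both probes liver is highest for *Cpt1a*, and heart and muscle lie above liver and brain for *Cpt1b*. Levels of different probes are not comparable.

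The carrier gene *Slc25a20* had nearly the same level in liver (3.30 ± 0.06, SD, n = 3) and heart (3.19 ± 0.26, SD, n = 3), lay 1.60 lower in muscle than in heart (SE 0.23, limma adjusted p = 0.000386), and was lowest in brain (-1.82 ± 0.36, SD, n = 3). The difference of 0.11 between liver and heart (SE 0.23) did not pass the test. *Cpt2*, which acts after the carrier, had levels of 6.35 ± 0.10 in heart, 5.84 ± 0.46 in liver, 4.90 ± 0.28 in muscle and 0.79 ± 0.34 in brain (SD, n = 3). Heart and liver overlapped, liver exceeded muscle by 0.94 (SE 0.28, limma adjusted p = 0.0132), and muscle exceeded brain 17.3-fold.

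The acyl-CoA dehydrogenases shared the low level in brain and differed in how liver ranked. *Acadvl*, for very long chains, was 1.81-fold higher in heart (8.48 ± 0.23, SD, n = 3) than in liver (7.63 ± 0.24, SD, n = 3; limma adjusted p = 0.016), and liver overlapped with muscle (7.33 ± 0.38, SD, n = 3). *Acadl*, for long chains, was 2.85-fold higher in heart (6.21 ± 0.42, SD, n = 3) than in liver (4.69 ± 0.31, SD, n = 3; limma adjusted p = 0.00212), and liver and muscle (4.50 ± 0.51, SD, n = 3) overlapped. *Acadm*, for medium chains, was the one dehydrogenase with all 4 tissues apart. Heart (7.73 ± 0.13) exceeded liver (6.83 ± 0.30) by 0.90 (SE 0.21, limma adjusted p = 0.00406), and liver exceeded muscle (6.19 ± 0.10) by 0.64 (SE 0.21, limma adjusted p = 0.0242). *Acads*, for short chains, had liver (3.63 ± 0.23) and heart (3.39 ± 0.31) side by side, with a difference of 0.24 that did not pass the test (SE 0.27, limma adjusted p = 0.495). Its gap between muscle and brain was 32.3-fold (difference 5.02, SE 0.27), where that of *Acadl*, *Acadm* and *Acadvl* was 11- to 12.5-fold. These gaps lie within single probes, and their differences between genes were not tested.

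Both subunits of the trifunctional protein were highest in heart. *Hadha* had levels of 4.60, 4.31 and 5.11 in the WT hearts, 2.75, 3.05 and 3.28 in the livers, 2.15, 2.57 and 2.42 in the muscles and 0.10, -0.43 and -0.14 in the brains, with no overlap between tissues. Heart exceeded liver 3.13-fold (difference 1.64, SE 0.26, limma adjusted p = 0.000295), while liver minus muscle (0.65, SE 0.26) did not pass the test (limma adjusted p = 0.0573). *Hadhb* had levels of 8.18, 7.92 and 8.26 in the hearts, 3.33-fold above the muscles (6.20, 6.34 and 6.61; limma adjusted p = 0.000155). Muscles and livers (6.68, 6.17 and 6.14) overlapped, and the brains had 3.61, 3.34 and 3.36.

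*Hadha* and *Hadhb* lie head to head on chromosome 5. Their RefSeq transcripts start on opposite strands with 272 bases between the starts, so that their upstream windows overlap over 228 bases. These bases are printed below, with the 250 bases upstream of the starts of *Cpt1a*, *Acadm* and *Acadvl*, the genes with a match to AGGTCA, the core of nuclear receptor binding sites such as those of the PPAR and ERR families, which are known regulators of these enzymes. The sequences are from RefSeq (GRCm38.p6), read 5' to 3' on the named strand. Capitals mark matches, on either strand, to AGGTCA, to the GC box GGGCGG and to the CCAAT box.
Hadha and Hadhb, shared, chr5:30155003-30155230, + strand: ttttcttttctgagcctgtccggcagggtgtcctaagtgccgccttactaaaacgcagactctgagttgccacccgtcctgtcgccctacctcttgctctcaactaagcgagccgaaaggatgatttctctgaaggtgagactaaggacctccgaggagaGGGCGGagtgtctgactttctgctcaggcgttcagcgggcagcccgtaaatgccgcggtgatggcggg
Cpt1a, chr19:3323051-3323300, + strand: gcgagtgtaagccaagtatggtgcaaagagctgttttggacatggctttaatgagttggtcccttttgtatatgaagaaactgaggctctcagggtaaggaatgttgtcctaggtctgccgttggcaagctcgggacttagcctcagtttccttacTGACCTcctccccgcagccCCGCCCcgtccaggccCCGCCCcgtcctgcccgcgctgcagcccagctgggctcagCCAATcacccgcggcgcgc
Acadm, chr3:153944644-153944893, - strand: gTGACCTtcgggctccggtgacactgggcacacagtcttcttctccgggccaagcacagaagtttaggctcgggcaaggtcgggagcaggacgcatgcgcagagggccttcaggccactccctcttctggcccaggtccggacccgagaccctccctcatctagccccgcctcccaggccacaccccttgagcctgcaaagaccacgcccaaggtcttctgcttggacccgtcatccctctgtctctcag
Acadvl, chr11:70015429-70015678, - strand: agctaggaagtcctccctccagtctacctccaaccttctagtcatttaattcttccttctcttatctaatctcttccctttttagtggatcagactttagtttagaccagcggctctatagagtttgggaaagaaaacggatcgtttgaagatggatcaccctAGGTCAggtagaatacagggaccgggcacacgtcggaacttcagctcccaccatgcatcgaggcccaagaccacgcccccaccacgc
Windows from 250 bases before to 50 after the start were on hand for 9 of the 10 genes, all but *Cpt1b*. The annotated *Cpt1a* gene begins at chr19:3322326, upstream of its printed window, and bases before that earlier position were not searched. AGGTCA was found in 3 of 9 windows (16.3% of all 32851 windows hold it), GGGCGG in 7 of 9, all but *Acadm* and *Acadvl* (35.7%), and CCAAT in *Cpt1a* alone (37.4%). The only GGGCGG match of *Hadha* is also a match of *Hadhb*, in their shared bases, so these windows are not independent. The PPAR direct repeat, 2 copies of AGGTCA with 1 base between them, was found in 0 of 9 (0.0396%) and the ERR element, TNA followed by AGGTCA, in 0 of 9 (1.28%). Both strands were searched, AGGTCA is contained in both longer motifs, and bases farther from the start were not searched. A match is a run of letters and not a shown binding site.

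The 12 arrays of the *Rap1* KI/KI mice gave the tissue contrasts in a second set of mice. Here genes and probes are counted in either direction, while the shares given above for WT mice count a single direction, so these shares are not comparable. The number of genes past a limma adjusted p of 0.05 was 10 for brain minus heart (56.4% of all probes), 9 for brain minus muscle (58.3%) and 9 for liver minus brain (70.8%), the same numbers of genes as in WT mice. It was 7 for heart minus muscle (26.8%; 9 genes in WT), 6 for liver minus heart (59%; 7 genes in WT) and 4 for liver minus muscle (61.9%; 6 genes in WT). The mean of all 10 genes was higher in heart than in muscle in both genotypes, with a median difference of 0.90 in *Rap1* KI/KI and 1.54 in WT mice. In *Rap1* KI/KI mice 5 had groups that did not overlap (8045 of all 41170 probes were separated with heart higher), and *Cpt1b* differed by 0.11 (limma adjusted p = 0.862). *Cpt1a* was again 17-fold higher in liver than in heart (difference 4.09, SE 0.20), and *Cpt1b* 369-fold higher in muscle than in liver (liver minus muscle -8.53, SE 0.40). Slide and tissue were partly confounded, since all livers lay on 1 slide and all muscles on another, and brains and hearts were each spread over 2. Where 1 slide held WT arrays of 2 tissues, all 10 genes were higher in the 3 livers than in the 1 brain (median 4.05). They were lower in 2 brains than in 2 hearts (median -5.32) and higher in 1 heart than in 3 muscles (median 1.40). With slide as a block, 3 genes were called between liver and muscle, which shared no slide, in place of 6.

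Across the 24 arrays, the genes fell into the same pattern except the 2 *Cpt1* genes. The Pearson r of log2 levels between any 2 of the other 8 genes was 0.90 to 0.99, while *Cpt1a* had r of 0.28 to 0.64 with these 8 genes and *Cpt1b* 0.37 to 0.71, and *Cpt1a* and *Cpt1b* had -0.46. Since the 24 arrays are 4 tissues of 6 mice, these values follow the tissue means and are a description. Of 18555 named genes, those with levels most like *Cpt1a* included *Ang4* (r = 0.996), *Slc16a12*, *Akr1c12* and *Vkorc1* (0.991 each or above). Among those most like *Cpt1b* were *Pdlim5* (0.995), *Itgb1bp2*, *Yipf7* and *Hrc* (0.993 or above), and most like *Hadha* were *Nudt8* (0.988), *S100a1*, *Mrps35*, *Csrp3* and *Oxld1* (0.982 or above). *Hadhb* came in place 10 on the list of *Hadha*.

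Most other genes of mitochondrial beta-oxidation were also lower in brain than in the other tissues and higher in heart than in muscle. Of 16 listed genes, 16 were called lower in brain than in heart (32.4% of all probes), 15 lower in brain than in muscle (34.5%), 15 higher in liver than in brain (39%) and 13 higher in heart than in muscle (14.9%; limma adjusted p under 0.05). *Decr1*, which prepares unsaturated chains for oxidation, was 37.3-fold lower in brain than in heart, and *Etfb*, a subunit of the electron acceptor of the dehydrogenases, 21.4-fold lower. Of 17 genes of peroxisomal beta-oxidation, which shortens very long chains outside the mitochondrion, 15 were called higher in liver than in heart (26.4% of all probes), among them *Acaa1b* (24.4-fold) and *Ehhadh* (26.8-fold), and 1 lower (24.6%). Of 6 genes of ketone body metabolism, 4 were called higher in liver than in heart and 2 lower (median difference 1.46), and among the lower was *Oxct1*, which starts the use of ketone bodies as a fuel (191-fold). Among fatty acid handling genes, *Cpt1c*, the third carnitine palmitoyltransferase 1 gene, known from brain, was 21.4-fold higher in brain than in heart, and *Fabp3*, a fatty acid binding protein of heart, was 3980-fold lower in liver than in heart. Among regulators, *Ppargc1a*, a coactivator of oxidative genes, was 10-fold lower in liver than in heart and *Acacb*, which makes the malonyl-CoA that inhibits CPT1, 135-fold lower in brain than in heart.

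Between the genotypes, 0 of the 10 genes in each tissue had a limma adjusted p under 0.05, as had 0 of all probes (0%). In liver the mean of 8 genes was above that of WT mice and the mean of 2 below it (median difference 0.16, against -0.01 over all tested probes), in brain 9 were above and 1 below (0.22, against -0.05), in heart 1 was above and 9 below (-0.39, against -0.02), and in muscle 8 were above and 2 below (0.24, against -0.07). The genes share mice, so these counts are not independent. At an unadjusted limma p under 0.05 there was 1 gene, *Hadha* in heart, lower in *Rap1* KI/KI mice (2.42% of all probes were called lower there and 7.51% in either direction). In liver, brain and muscle there were 0 (2.13%, 2.62% and 2.47% of all probes were called in either direction). With 3 mice a group, the smallest p of an exact permutation test is 0.1. The p-values measure the spread between these mice.

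**Figure D3:**
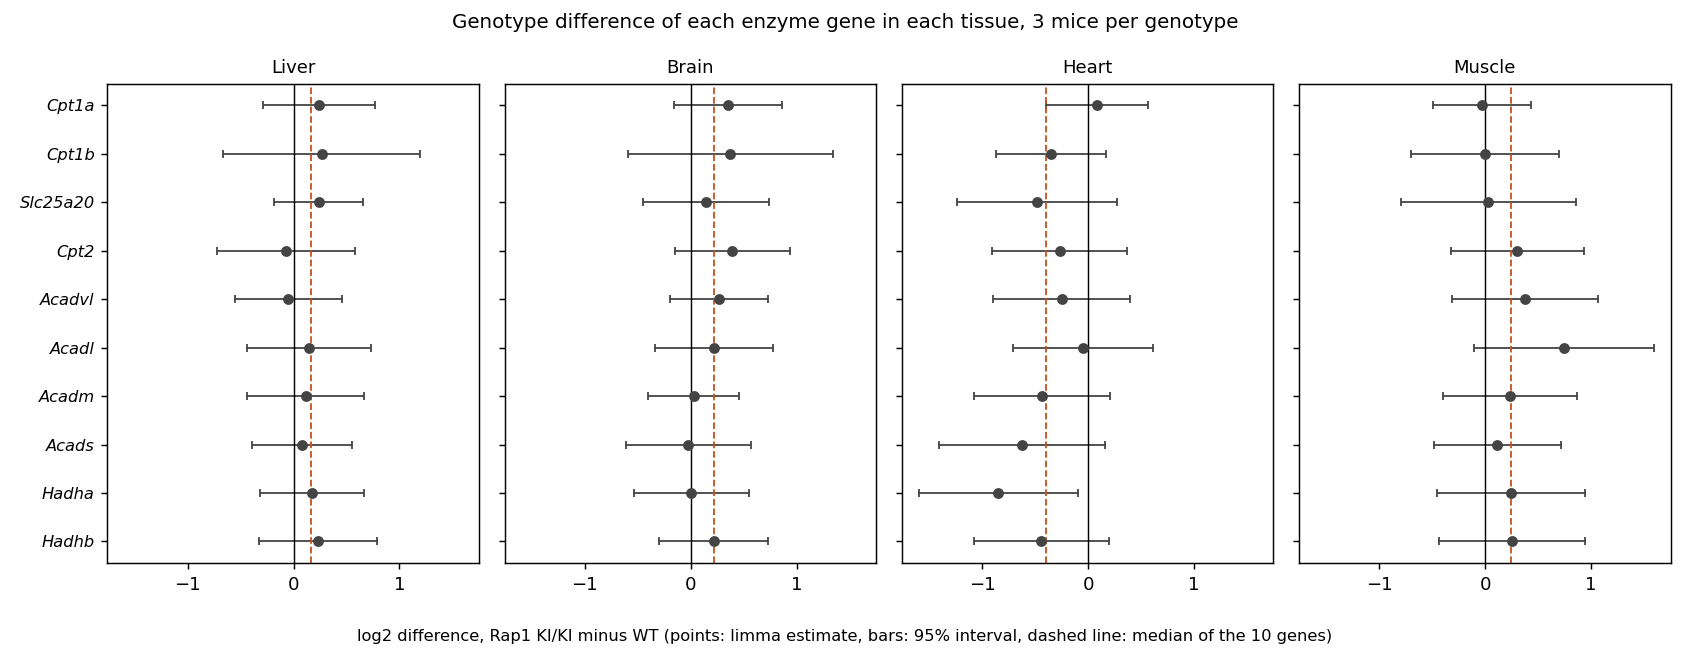
Log2 difference (Rap1 KI/KI minus WT) of each gene in each tissue, with the limma estimate as a point, its 95% interval as a bar, a solid line at 0 and a dashed line at the median of the 10 genes (0.16, 0.22, -0.39 and 0.24). The interval of *Hadha* in heart leaves out 0, and all others span it.

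In heart, 9 of the 10 genes had a lower mean in *Rap1* KI/KI mice. *Hadha* had levels of 4.60, 4.31 and 5.11 in the WT hearts and 4.07, 4.08 and 3.33 in the *Rap1* KI/KI hearts. The groups did not overlap, which held for 14.7% of all probes in heart, 8.69% with *Rap1* KI/KI lower. The difference was -0.85 (SE 0.32, 95% interval -1.60 to -0.09, limma adjusted p = 0.646), or 0.557-fold. *Hadhb*, the other subunit, had 8.18, 7.92 and 8.26 in WT and 7.80, 8.02 and 7.22 in *Rap1* KI/KI hearts (difference -0.44, 95% interval -1.08 to 0.19), and here KI2 lay within the WT range.

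The dehydrogenases gave smaller or more scattered differences. *Acads* had 3.64, 3.04 and 3.49 in WT and 3.14, 3.03 and 2.14 in *Rap1* KI/KI hearts (-0.62, 95% interval -1.41 to 0.16). *Acadm* had 7.86, 7.61 and 7.72 against 7.43, 7.65 and 6.80 (-0.44, 95% interval -1.08 to 0.21). *Acadvl* (-0.25, 95% interval -0.90 to 0.40) and *Acadl* (-0.05, 95% interval -0.70 to 0.61) overlapped widely. In each of these 4 genes KI3 was the lowest of the *Rap1* KI/KI hearts, and for *Acadl* WT3 (5.76) lay below it (5.91).

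Of the transport genes, *Slc25a20* had 3.33, 3.35 and 2.88 in WT and 3.06, 2.96 and 2.09 in *Rap1* KI/KI hearts (-0.48, 95% interval -1.24 to 0.27). *Cpt2* differed by -0.27 (95% interval -0.91 to 0.37) on its main probe and by -0.04 on its second. *Cpt1b* differed by -0.35 (95% interval -0.87 to 0.17) on its main probe, with overlapping groups, and by -0.71 (SE 0.34, limma adjusted p = 0.646) on its second, where the WT hearts had 4.55, 4.25 and 5.48 and the *Rap1* KI/KI hearts 4.00, 4.11 and 4.03. *Cpt1a*, the form known from liver, was the one gene with a higher mean in the *Rap1* KI/KI hearts, by 0.09 (95% interval -0.40 to 0.57), and by 0.18 on its second probe.

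The heart differences of the 10 genes were, by their median, largest in 1 mouse. The median deviation of the 10 genes from the WT mean was -0.76 in KI3, -0.31 in KI1 and -0.09 in KI2, and -0.12 to 0.10 in the WT mice. Across the *Rap1* KI/KI hearts, fat cell transcripts went the other way, higher where the 10 genes were lower. The log2 of the summed level of 7 white fat cell markers was 9.39 in KI3, 8.58 in KI1 and 8.14 in KI2, against 7.84 to 7.94 in WT hearts, and 6 of 6 tested markers had a higher mean in *Rap1* KI/KI hearts. *Adipoq*, made by fat cells, had 4.86 in KI3, 4.05 in KI1 and 0.42 in KI2, against -4.23 to 0.72 in WT hearts, and *Ucp1*, the defining gene of brown fat, had 5.93 in KI3 and 4.96 in KI1 and at most -1.03 in the other hearts. Transcripts of slow muscle contraction were mostly lower in *Rap1* KI/KI hearts, with 5 of 6 markers at a lower mean. Their log2 sum was 8.81 to 9.31 against 9.28 to 9.61 in WT hearts, and *Myh7* had 4.46, 2.99 and 3.17 against 4.64, 5.68 and 5.72. The part of any of these in the enzyme values was not tested. The log2 of the summed level of 9 heart muscle markers was 11.4 to 11.9 in *Rap1* KI/KI and 11.5 to 12.3 in WT hearts. Without KI3 the median over the 10 genes was -0.18 and the difference of *Hadha* -0.60, and without KI1 and KI3, which leaves 1 *Rap1* KI/KI heart assumed to vary like the WT hearts, the median was -0.09, with 7 genes lower. After quantile normalization of the arrays the median was -0.18. By slide, the median was -0.17 on the slide with WT1, WT2, KI1 and KI2, with all 10 genes lower, and -0.75 on the slide with WT3 and KI3, with 8 lower, and *Hadha* differed by -0.38 and -1.78.

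In muscle, 8 of 10 genes had a higher mean in *Rap1* KI/KI mice, and the 2 *Cpt1* genes did not on their main probes. *Acadl* had the widest gap, with 3.99, 4.49 and 5.01 in WT and 5.64, 4.65 and 5.43 in *Rap1* KI/KI muscles (0.74, SE 0.36, 95% interval -0.11 to 1.59, limma adjusted p = 0.939). For *Acadl*, KI2 lay within the WT range. No gene was separated between the groups (6.45% of all probes were). *Acadvl* had 7.17, 7.05 and 7.76 in WT and 8.13, 7.60 and 7.36 in *Rap1* KI/KI muscles (0.37, 95% interval -0.32 to 1.06), and *Cpt2* 4.82, 4.68 and 5.21 against 5.53, 5.29 and 4.79 (0.30, 95% interval -0.32 to 0.93).

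The remaining differences were 0.25 for *Hadhb* (95% interval -0.43 to 0.94), 0.24 for *Hadha* (-0.46 to 0.94), 0.24 for *Acadm* (-0.39 to 0.87), 0.12 for *Acads* (-0.48 to 0.71), 0.03 for *Slc25a20* (-0.79 to 0.85), -0.01 for *Cpt1b* (-0.70 to 0.69) and -0.03 for *Cpt1a* (-0.50 to 0.43). For *Hadhb* the muscle of KI1 had 7.21, against 6.45 in KI2, 6.26 in KI3 and 6.20 to 6.61 in WT muscles. *Cpt1b* was higher in KI1 as well (5.79) and lower in KI2 (4.83) and KI3 (4.95) than in all WT muscles (5.06, 5.12 and 5.41). On the second probes, the differences in muscle were 0.18 for *Cpt1a*, -0.19 for *Cpt1b* and 0.27 for *Cpt2*.

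For most genes KI1 lay apart from the other *Rap1* KI/KI muscles. *Acadl* was an exception, since KI3 (5.43) also lay above all WT muscles (at most 5.01), and its difference was 0.54 without KI1 and at least 0.49 when any 1 mouse was left out. The median deviation of the 10 genes from the WT mean was 0.78 in KI1, 0.04 in KI2 and -0.11 in KI3, and -0.18 to 0.17 in WT muscles, and 9 of 10 genes in KI1 lay above the WT mean. KI1 also had the highest level of all 6 slow fibre markers. The log2 of their summed level was 7.74 in KI1, 5.64 in KI3 and 3.11 in KI2, against 2.56, 3.50 and 4.85 in WT muscles, and *Myh7*, the slow myosin heavy chain, had 6.26 in KI1, 3.75 in KI3, -1.42 in KI2 and -0.25, -1.54 and 1.14 in WT muscles. The log2 of the summed level of 7 neutrophil markers was 6.56 in KI1, 3.78 in KI3, 1.79 in KI2 and 0.64 to 1.94 in WT muscles, and the log2 sum of 10 fast fibre markers was 12.3 to 12.7 in all 6. Of these 10 fast markers, 7 had a lower mean in *Rap1* KI/KI muscles and 3 a higher one (median -0.11). Groups did not overlap, with *Rap1* KI/KI lower, for 3 of them and for 1323 of all 32343 probes. The part of these in the enzyme values was not tested. Without KI1, 4 of 10 genes had a higher mean in *Rap1* KI/KI muscles and the median was -0.03, and without WT1, a 5-month-old mouse like KI1, 7 had a higher mean and the median was 0.15.

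**Figure D4:**
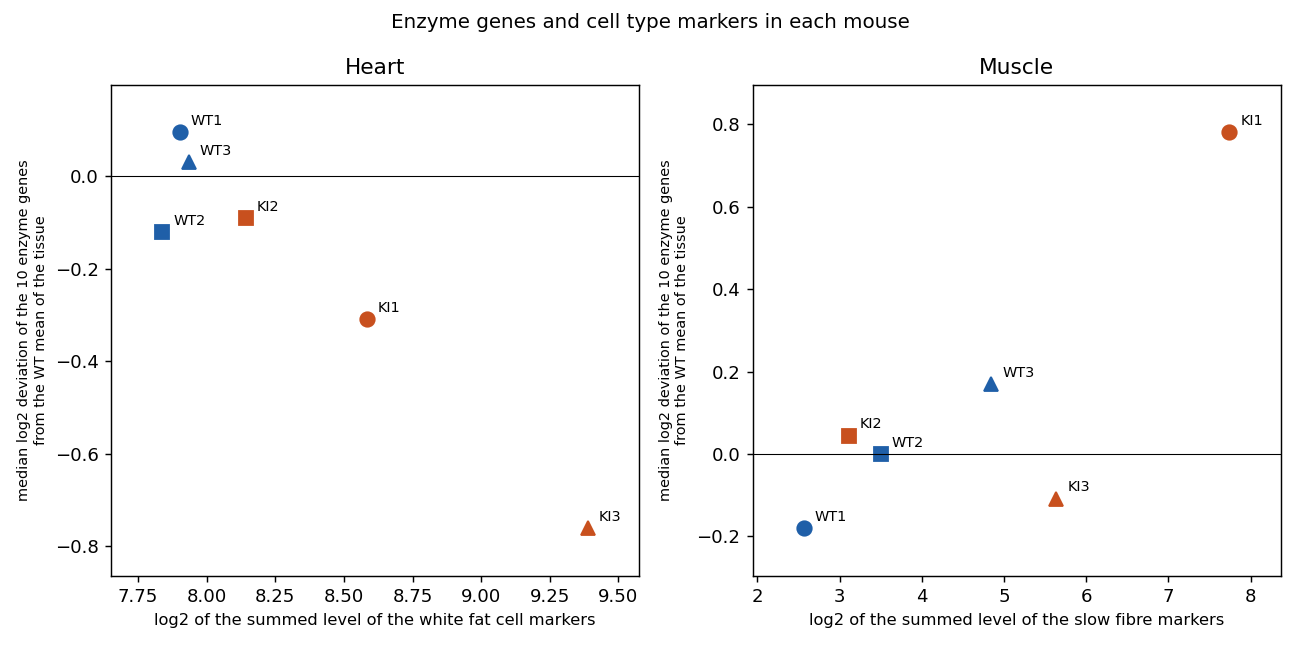
For each mouse, the median log2 deviation of the 10 genes from the WT mean of the tissue (vertical axis) against the log2 of the summed level of white fat cell markers in heart (left) and of slow fibre markers in muscle (right), WT in blue and Rap1 KI/KI in orange. KI3 (-0.76) and KI1 (-0.31) are lowest in heart and have the highest fat marker sums, and KI1 (0.78) is highest in muscle and has the highest slow fibre sum. KI3, with the next highest slow fibre sum (5.64), has -0.11 in muscle.

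In liver, *Slc25a20* was the one gene whose groups did not overlap (5.85% of all probes in liver). It had 3.32, 3.24 and 3.35 in WT and 3.60, 3.43 and 3.58 in *Rap1* KI/KI livers (difference 0.24, SE 0.18, 95% interval -0.18 to 0.66, limma adjusted p = 1). The differences of all 10 genes in liver ran from -0.07 to 0.27, and the median was 0.06 without KI3, 0.09 without KI1 and 0.24 without KI2. In brain no gene was separated (7.74% of all probes were), the differences ran from -0.02 to 0.39, and the median was 0.14 without KI2. By slide, which in brain coincides with age, the median was 0.07 on the slide with WT1 and KI1, with 5 genes higher and 5 lower, and 0.21 on the slide with the other 4 brains, with 8 higher.

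Whether the genotype difference itself differed between tissues was tested by the interaction in a fit of all 24 arrays. None of the 10 genes passed (limma adjusted p = 1 for each), and 0% of 43530 probes did. *Hadha* was the only one of the 10 genes with an unadjusted p under 0.05 (2.94% of all probes had one), with differences of 0.18 in liver, 0.00 in brain, -0.85 in heart and 0.24 in muscle. The opposite signs of the medians in heart and muscle were thus not shown to differ by a test of single genes.

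Of the other genes of mitochondrial beta-oxidation in heart, 15 of 16 had a lower mean in *Rap1* KI/KI mice (median -0.24), among them *Acad12*, an acyl-CoA dehydrogenase, with -0.77 (SE 0.24, limma adjusted p = 0.646) and groups that did not overlap (8.69% of all probes in heart were separated with *Rap1* KI/KI lower). Without KI3, 12 of 16 had a lower mean (median -0.07), and without KI1 and KI3, the hearts high in fat cell markers, 5 of 16 had (median 0.08). In brain 15 of 16 had a higher mean (median 0.13), in muscle 12 of 15 (median 0.23) and in liver 9 of 16 (median 0.05). Without KI1, 10 of 15 had a higher mean in muscle (median 0.09), and without KI1 and KI2 6 of 15 (median -0.05). None passed an adjusted p of 0.05. In heart, *Ppargc1b*, a coactivator of oxidative genes, had a difference of -0.60 (SE 0.23, limma adjusted p = 0.646) and no overlap, and 9 of 16 listed regulators had a lower mean (median -0.16), or 5 of 16 without KI1 and KI3 (median 0.06).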

How the data were processed

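Arrays of 4 tissues from 6 male mice were used. Intensity values as deposited are background-subtracted, detrended 1-color Agilent signals (Feature Extraction 12.0.3.1) with no normalization between arrays, and the score values deposited by the authors are z-scores of log10 intensities within an array (recomputed within 0.005). Outlier spots were left out, spots of a probe averaged, and levels set against the 75th percentile of each array. Probes were named through RefSeq accessions (GRCm38.p6), while the array design names another build, so no gene coordinates of it are given. Probes well above background on at least 3 arrays were tested with limma 3.58.1 (R 4.3.3, statmod 1.5.0; two-sided, Benjamini-Hochberg over all tested probes). The probe with the highest mean over 24 arrays represents a gene, and its other probes are given beside it for part of the comparisons. Between the genotypes, second probes had the opposite sign for *Cpt1a*, *Cpt1b* and *Cpt2* in liver, *Cpt2* in brain and *Cpt1a* in muscle. Some genes that the naming rule gives are not reported here. Genotype differences are named for all genes in heart and muscle, elsewhere where groups do not overlap or the unadjusted p is under 0.05, and at most 3 genes of a list by smallest p. The members and lists were chosen with earlier results of these data known. The same animal gave 4 arrays, so animal numbers pair tissues. Deviations of 2 tissues of a mouse correlated by -0.32 to 0.38 (median 0.09, 36 pairs). Procedures were tested on simulated data. Arrays of a group correlated by at most 0.993. The number of arrays limits the precision.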

Additional observations from a re-analysis of the deposited data

How the results depend on the processing

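All genotype medians kept their sign under every alternative except in muscle. The muscle median was -0.03 without KI1 and -0.11 without KI1 and KI2, which leaves 1 *Rap1* KI/KI muscle. At a limma adjusted p under 0.05, 0 genes were called by genotype under each alternative. The count at an unadjusted p under 0.05 was 1 in heart, and 0 after quantile normalization, 2 with all 24 arrays in one fit, and 0 without KI1 and KI3. It was 0 in muscle and 1 with all 24 arrays in one fit, and for the interaction 1, and 0 after quantile normalization. With the mouse as a replicate block, it was 2 in heart and 1 in muscle. The block left the tissue counts at 9, 7, 6, 10, 9 and 9, and changed no other call. Leaving out 1 mouse at a time gave counts of 0 to 1 in each tissue and for the interaction, and the 1 of *Hadha* in heart was lost without WT1, WT3 or KI3. It also gave 4 to 10 genes with a higher mean in *Rap1* KI/KI muscle. The heart median was -0.0905 without KI1 and KI3 and -0.18 after quantile normalization, against -0.39. For the counts at an unadjusted p, shares over all probes were computed in the main fits only.

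Of the single genotype differences, 310 recomputed values kept their sign and 25 turned. *Acadl* in heart (-0.05) was 0.13 after quantile normalization, 0.014 with the authors' z-scores, 0.083 without KI1 and KI3, and -0.27 to 0.16 when 1 mouse was left out. Without KI1 and KI3, *Cpt1a* was -0.13, *Cpt2* 0.23 and *Acadvl* 0.22 in heart. In muscle, *Cpt1a* (-0.03) was 0.0165 after quantile normalization and 0.074 as the mean of its probes, and *Cpt1b* (-0.01) 0.14 after quantile normalization, 0.048 after normexp and 0.014 with z-scores. Leaving out 1 mouse gave, in muscle, -0.14 to 0.037 for *Cpt1a*, -0.31 to 0.18 for *Cpt1b*, -0.35 to 0.30 for *Slc25a20*, -0.027 to 0.41 for *Acadm*, -0.100 to 0.24 for *Acads*, -0.039 to 0.47 for *Hadha* and -0.031 to 0.44 for *Hadhb*.

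Between tissues, the counts of called genes were within 1.5 times of those reported, except that with slide as a block, an alternative chosen after seeing the data, 3 genes in place of 6 were called between liver and muscle. Differences near 0 turned. For liver minus heart, *Slc25a20* was -0.17 after quantile normalization, -0.085 with z-scores and -0.58 with the slide block, *Acads* -0.0625 after quantile normalization, and *Cpt2* 0.0103 as the mean of its probes. For liver minus muscle, *Acadl* was -0.036 after quantile normalization, -0.057 with z-scores, -1.0003 with the slide block and -0.40 in *Rap1* KI/KI mice, *Acadvl* -0.071 with z-scores and -0.12 in *Rap1* KI/KI mice, and *Hadhb* 0.013 after normexp. *Cpt1a* for brain minus muscle was -0.22 with the slide block. Leaving out 1 mouse gave -0.061 to 0.23 for *Slc25a20* (liver minus heart), -0.24 to 0.52 for *Acadl* (liver minus muscle), -0.32 to 0.15 for *Hadhb* (liver minus muscle), -0.075 to 0.50 for *Cpt1b* (liver minus brain) and -0.15 to 0.32 for *Cpt1a* (brain minus muscle). Normexp moved the median of all probes for liver minus muscle from -0.06 to -0.34 and for brain minus muscle from -0.28 to -0.61, and the share of calls that were higher from 50.4% to 38.1% and from 41.4% to 25.4%. The cause of these shifts was not tested. Leaving out samples with high marker transcripts for the other gene lists was also chosen after seeing the data.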

Other observations

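Known target genes of PPAR nuclear receptors were also read. Of the listed genes tested, 9 of 11 had a higher mean in *Rap1* KI/KI livers (median 0.43), 8 of 10 in brains (0.48), 8 of 10 in hearts (0.21) and 9 of 9 in muscles (0.86), and none passed a limma adjusted p of 0.05. At an unadjusted limma p under 0.05, there were 3 in liver (2.13% of all probes were called in either direction), 1 in brain (2.62%), 0 in heart (7.51%) and 4 in muscle (2.47%), all with a higher mean. In liver these included *Cyp4a14* (1.26, SE 0.35), *Cyp4a10* (0.88, SE 0.30), both fatty acid hydroxylases, and *Vnn1* (0.82, SE 0.23). All 3, already picked by their p, had groups that did not overlap, as had 5.85% of all probes in liver. In muscle they included *Angptl4*, an inhibitor of lipoprotein lipase (1.90, SE 0.68, no overlap, as for 6.45% of all probes), and *Plin5*, a lipid droplet protein (1.53, SE 0.52, overlapping groups). In muscle, marker transcripts of other cell types moved with them: 6 of 6 slow fibre markers (median 1.78), 7 of 7 neutrophil markers (3.04), 7 of 7 white fat cell markers (1.02) and 3 of 3 tested brown fat cell markers (2.47) had a higher mean in *Rap1* KI/KI mice. Their part in these values was not tested. Without KI1, 9 of 9 PPAR targets had a higher mean in muscle (median 1.15), and without KI1 and KI2, which leaves 1 *Rap1* KI/KI muscle, 7 of 9 (median 0.32). Without KI1, 7 of 11 had a higher mean in liver (median 0.40), and without KI1 and KI3 8 of 10 in heart (median 0.24). The list holds none of the 10 enzymes.

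Ketone body genes had higher means for 6 of 6 genes in *Rap1* KI/KI muscles (median 0.13) and lower means for 5 of 6 in hearts (median -0.33). Without KI1, 2 of 6 had a higher mean in muscle (median -0.04), and without KI1 and KI3 4 of 6 had a lower mean in heart (median -0.05). Peroxisomal beta-oxidation genes had medians of 0.04 in liver, 0.07 in brain, -0.10 in heart and 0.08 in muscle over 17 genes. Without KI1 and KI3 the median in heart was 0.04, and without KI1 those in liver and muscle were -0.06 and -0.02.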
